A study of Mus musculus with 6 samples.

Results

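The 9 genes described here, Apoe, Abca1, Abcg1, Trem2, Cd36, Lpl, Fabp4, Fabp5 and Gpnmb, are genes with which macrophages take up, carry and release lipid, and were chosen by name from 31053 mouse genes. All 9 were measured in 6 libraries made from single cells in droplets, with each condition present once. Bone marrow-derived dendritic cells (DCs) grown from wild-type C57BL/6J mice with GM-CSF gave 3 libraries, of which the first was untreated, the second was stimulated with vitamin D3 (VD3) for 24 h, and the third was Ndrg2-KO, edited by nucleofection of Cas9 protein with 3 guides against Ndrg2. The other 3 libraries held cells of splinted excisional wounds of 6 mm in wild-type C57BL/6J mice of 6 weeks. The wounds were explanted on day 10, with 5 mice per group, and how the mice were combined in a library is not stated. A pullulan-collagen hydrogel on these wounds carried control DCs or Ndrg2-KO DCs or was left blank, and values for wounds are given in that order throughout. Untreated and VD3 DCs were not nucleofected, so an effect of nucleofection cannot be told apart from one of the edit in the cultures. The labels call the control DCs of the wounds untreated, whereas the methods of the study describe non-targeting guides for them. The design text of the series speaks instead of sorted GFP+ cells from wounds of joined mice, whereas the labels and the methods describe whole wound tissue, which is followed here. The eGFP row held 0, 1 and 0 UMIs in the 3 wound libraries, and any sort of their cells would bear on each wound share given. Only suspension cells of the cultures were taken. With a single library for each condition, no spread between replicates could be had for any value.

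Macrophages that clear dead cells and lipoproteins must dispose of cholesterol and fatty acids. Scavenger receptors and lipases bring lipid in, fatty acid binding proteins carry it through the cytosol, and ABC transporters pass cholesterol out to apolipoprotein E and other acceptors. Liver X receptors (LXR) sense oxysterols and switch on the export genes, and PPAR gamma is known to switch on Cd36 and Fabp4. Cells with high Trem2, Gpnmb, Lpl, Cd36 and Fabp genes have been called lipid-associated macrophages in adipose tissue, liver and arteries, and macrophages of healing skin take up large amounts of debris.

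The 6 libraries held 35083 kept cells, 24051 from the cultures and 11032 from the wounds, with 1948 to 8825 cells and 29675507 to 143627482 UMIs (unique molecular identifiers, each a counted transcript) per library. The median depth per cell ran from 4415 to 16316 UMIs, and the median mitochondrial share was 5.30%, 5.60% and 6.60% in untreated, VD3 and Ndrg2-KO DCs and 0.913% to 1.80% in the wounds. Pairs of libraries shared 1 to 19 cell barcodes. Ndrg2, the targeted gene, was at 4.62 CPM (UMIs of a gene scaled to a library total of 1000000) in untreated DCs, 1.42 CPM in VD3 DCs and 0.884 CPM in Ndrg2-KO DCs, but a 3′ tag need not report an edited allele. Among the 12 macrophage markers, C1qa, a complement subunit, was at 2001 to 2535 CPM in the wound macrophage-like cells, and each of the 12 was above 50 CPM there in all 3 libraries. The labelled DC identity of the cultures rests on Itgax (146, 77.8 and 263 CPM in untreated, VD3 and Ndrg2-KO DCs) and H2-Ab1 (908, 561 and 487 CPM), while Flt3 was at 2.69, 1.10 and 0.794 CPM.

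Of the 9 genes, 5 have a promoter in the RefSeq table of GRCm38.p6 used here, with 7 promoters of 300 bases between them. The promoter of Abca1, a known LXR target, is shown because it alone of the 7 held a match to a motif searched on both strands. The capitals mark the match, and both windows are printed 5′ to 3′ along the minus strand, on which Abca1 is transcribed.
Abca1 E-box, chr4:53160025-53160054: gggccatgtctcCACGTGctttctgctgag
Abca1 looser DR4, chr4:53159941-53159969: cagcgttTGACCGGTAGTAACCccggcgc
The first is the E-box CACGTG, beginning 147 bases before the start site, which 7.15% of the 32851 promoters of the table hold. The second is GGTNA followed after 5 bases by GGTCA, read on the opposite strand, beginning 67 bases before the start site, and 0.207% of promoters hold it. This looser form of the DR4 element was chosen after the promoter had been read. The stricter DR4 form, AGGTCA repeated after 4 bases, occurred in 5 promoters of the table, and the DR1 form, AGGTCA repeated after 1 base, in 13, and neither occurred in the 7. These matches describe the letters of the windows only.

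The first question was how the 9 genes stood in Ndrg2-KO DCs beside the other cultures. Of the 9, 6 were at least 2-fold higher in Ndrg2-KO DCs than in untreated DCs (Apoe, Abca1, Trem2, Cd36, Fabp4 and Gpnmb) and none was 2-fold lower. Among the 11980 genes with at least 100 UMIs in either library, 9.11% were at least 2-fold higher and 7.67% at least 2-fold lower. The median log2 ratio of the 9 genes was 3.01, against -0.06 for all genes. Against VD3 DCs, 7 of the 9 were at least 2-fold higher and none lower, with 12.2% and 7.8% of all genes past these limits. Fabp4, among the 7, had 57 UMIs in VD3 DCs and passed the limit of 100 UMIs only through the Ndrg2-KO library. Under a mitochondrial limit of 5%, Fabp5 was at 0.99 and lost the call, while Trem2 (1.36) and Abcg1 (1.05), at 0.54 and 0.60 otherwise, were past 2-fold. With totals that leave out mitochondrial and ribosomal protein genes, 7.98% of all genes were higher and 9.40% lower than in untreated DCs. Against VD3 DCs these shares were 10.0% and 10.6%. Both comparisons use the same Ndrg2-KO library, so they are not independent. With 1 library per condition the intervals below cover counting error only.

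**Figure D1:**
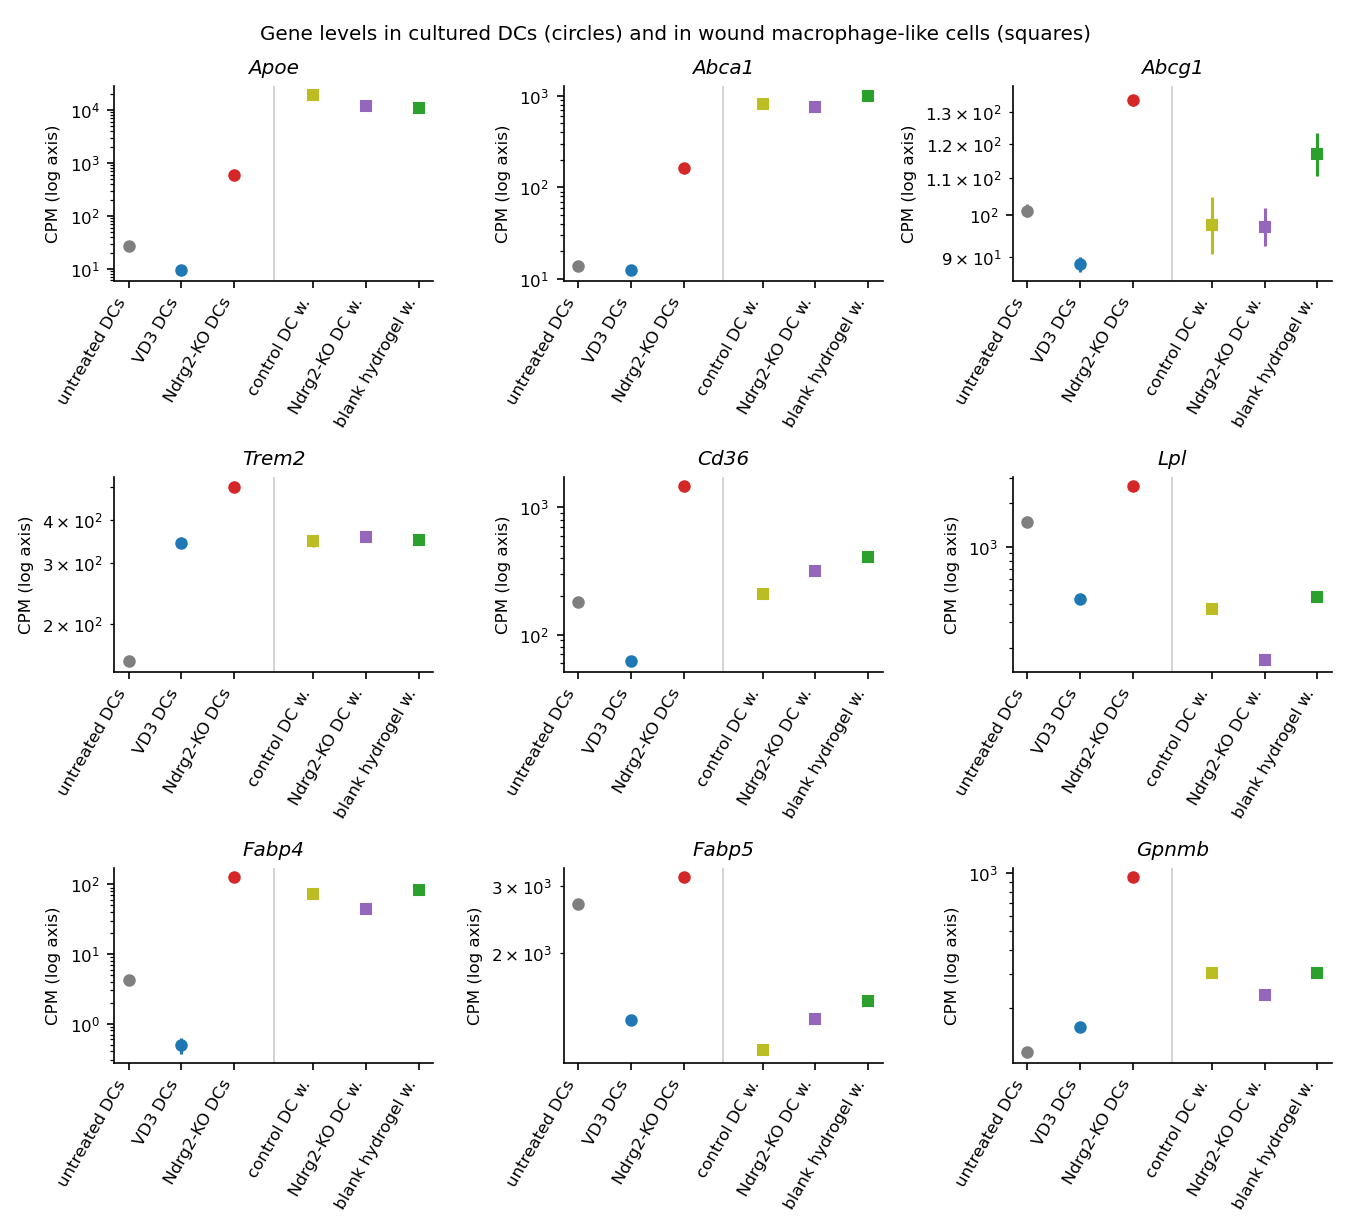
Level of each gene in CPM on a log axis, in the 3 culture libraries (circles) and in the macrophage-like cells of the 3 wound libraries (squares), with exact Poisson 95% intervals that are mostly smaller than the symbols. Ndrg2-KO DCs stand above both other cultures for each of the 9 genes over all kept cells, though for Fabp5 against untreated DCs the ratio became -0.41 without the clusters of neutrophil or granulocyte progenitor markers and the shallow clusters, and the wound macrophage-like cells stand above Ndrg2-KO DCs for Apoe and Abca1.

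Apoe encodes apolipoprotein E, the lipid carrier that macrophages secrete (chromosome 7, 19696109 to 19699188, minus strand, GRCm38). Its level was 26.9 CPM (3569 UMIs) in untreated DCs, 9.32 CPM (1085 UMIs) in VD3 DCs and 583 CPM (83730 UMIs) in Ndrg2-KO DCs. The Ndrg2-KO library was thus 21.7-fold above the untreated one, a log2 ratio of 4.44 (95% interval 4.39 to 4.49), and 5.97 (5.88 to 6.06) above VD3 DCs on the log2 scale. In untreated DCs, 61.2% of the Apoe UMIs came from culture cluster 4, a cluster with 5 of 8 neutrophil markers that held 12.8% of the cells at a median of 2896 UMIs over all libraries. Summed over 8 neutrophil markers the level was 5109 CPM in untreated DCs, 5941 CPM in VD3 DCs and 392 CPM in Ndrg2-KO DCs. Leaving out the clusters of neutrophil or granulocyte progenitor markers and the shallow clusters put the Apoe log2 ratio at 5.77.

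Abca1 exports cholesterol and phospholipid to poorly lipidated apolipoproteins (chromosome 4, 53030787 to 53159895, minus strand). It stood at 13.9 CPM in untreated DCs, 12.6 CPM in VD3 DCs and 162 CPM in Ndrg2-KO DCs, with 1844, 1467 and 23226 UMIs. The ratio of the edited to the untreated culture was 3.54 on the log2 scale (3.47 to 3.61), and VD3 and untreated DCs lay within 1.10-fold of each other. Abcg1, the transporter that passes cholesterol to high density lipoprotein (chromosome 17, 31057675 to 31117988, plus strand), showed a far smaller spread, with 101, 88.3 and 134 CPM in untreated, VD3 and Ndrg2-KO DCs. Its log2 ratio of 0.41 (0.37 to 0.44) left it within 2-fold, so the pair of exporters did not share a size of difference.

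Trem2 is a receptor for lipids and lipoproteins that signals through Tyrobp (chromosome 17, 48346401 to 48354147, plus strand). It was at 157, 343 and 499 CPM in untreated, VD3 and Ndrg2-KO DCs, and it was the single gene of the 9 that was at least 2-fold higher in VD3 than in untreated DCs. The log2 ratio of VD3 to untreated DCs was 1.13 (1.11 to 1.15), that of Ndrg2-KO to untreated DCs 1.67 (1.65 to 1.69), and that of Ndrg2-KO to VD3 DCs 0.54. Under a mitochondrial limit of 5% the first of these was 0.73. Cd36, a scavenger receptor for oxidised lipoproteins and fatty acids (chromosome 5, 17781690 to 17888801, minus strand), was at 182, 61.4 and 1470 CPM (24064, 7151 and 211066 UMIs). Ndrg2-KO DCs therefore stood 8.10-fold above untreated DCs (log2 ratio 3.02) and 23.9-fold above VD3 DCs.

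Lpl, the lipoprotein lipase that frees fatty acids from triglyceride (chromosome 8, 68880491 to 68907448, plus strand), was abundant in all 3 cultures. It reached 1478 CPM in untreated, 438 CPM in VD3 and 2621 CPM in Ndrg2-KO DCs. Its ratio to untreated DCs, 0.83 on the log2 scale (0.82 to 0.83), was below 2-fold, while the ratio to VD3 DCs was 2.58. Fabp4, the fatty acid binding protein of adipocytes and macrophages (chromosome 3, 10204088 to 10208576, minus strand), was at 4.22 CPM (559 UMIs), 0.489 CPM (57 UMIs) and 126 CPM (18146 UMIs). Its log2 ratios of 4.91 (4.78 to 5.03) against untreated and 8.01 (7.64 to 8.41) against VD3 DCs were the largest of the 9 over all kept cells. Without the clusters of neutrophil or granulocyte progenitor markers and the shallow clusters, Apoe at 5.77 stood above Fabp4 against untreated DCs. The 6 adipocyte markers summed to 0.279 CPM in Ndrg2-KO DCs and Lep was at 0.

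Fabp5, a second binding protein of the same family (chromosome 3, 10012548 to 10016607, plus strand), was at 2685, 1330 and 3156 CPM in untreated, VD3 and Ndrg2-KO DCs. Between Ndrg2-KO and untreated DCs its ratio of 0.23 on the log2 scale became -0.41 without the clusters of neutrophil or granulocyte progenitor markers and the shallow clusters, so no direction is given for it. Gpnmb, a lysosomal membrane glycoprotein of lipid-laden macrophages (chromosome 6, 49036546 to 49070929, plus strand), was at 118, 160 and 948 CPM. Its 8.05-fold excess over untreated DCs had a log2 ratio of 3.01 (2.99 to 3.03). Without the same clusters, the count of genes at least 2-fold higher in Ndrg2-KO than in untreated DCs was 7 of 9.

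VD3 DCs differed from untreated DCs in the other direction for most of the 9. Of the 9, 5 were at least 2-fold lower (Apoe, Cd36, Lpl, Fabp4 and Fabp5) and 1 was at least 2-fold higher, Trem2, beside 6.49% and 3.55% of all genes. Among the 5, Fabp4 had 57 UMIs in VD3 DCs and 559 in untreated DCs. It passed the limit of 100 UMIs only through the untreated library, where it is high. Fabp4 gave -3.11 (-3.53 to -2.71), Lpl -1.75, Cd36 -1.56 and Apoe -1.53 on the log2 scale. Apoe was at -0.69, within 2-fold, without the clusters of neutrophil or granulocyte progenitor markers and the shallow clusters. Fabp5 lay close to the limit with -1.01, and ranged from -1.59 to -0.92 over the alternatives. Gpnmb gave 0.44, Abca1 -0.14 and Abcg1 -0.20, all within 2-fold.

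**Figure D2:**
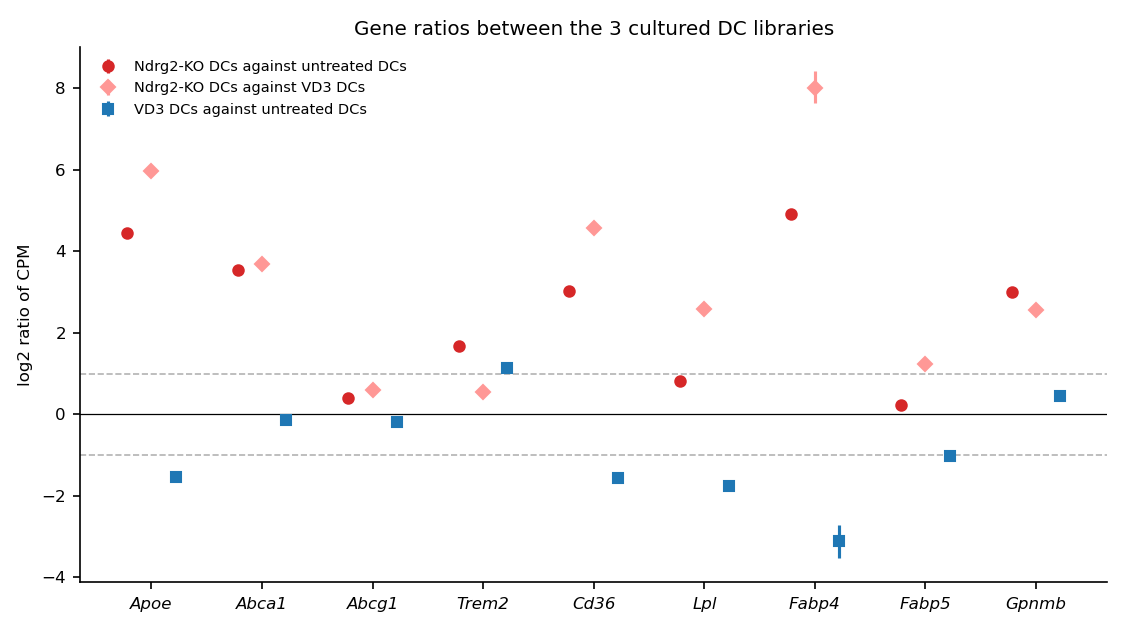
Log2 ratio of CPM for each gene between the 3 culture libraries, with exact 95% intervals for counting error and dashed lines at 2-fold. The ratios of Ndrg2-KO DCs (circles and diamonds) are all above 0, from 0.23 for Fabp5 to 8.01 for Fabp4, while those of VD3 to untreated DCs (squares) are below 0 for 7 of the 9 genes.

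The next question was which cultured cells carried these genes. Clustering of the cultures gave 16 clusters, and in 12 of them over 90% of the cells belonged to a single library, which a cluster may reflect in place of a type. Culture cluster 0 held 3600 Ndrg2-KO cells, was led by Arg1, Mmp13 and Fabp4, and carried 4 of 8 premature DC and 6 of 12 macrophage markers. It held 73542198 of the 143627482 UMIs of that library over all genes, and 50.7% (Fabp5) to 71.8% (Fabp4) of the UMIs of each of the 9. Fabp5 was no higher in it than in the whole library, with 3123 against 3156 CPM. Levels in this cluster are given as a description, because nearly all of its cells came from the Ndrg2-KO library. Fabp4 and Apoe were among its leading genes by fold, but the 9 genes were left out of the variable genes that formed the clusters. Culture cluster 0 reached 3227 CPM for Lpl, 2020 CPM for Cd36 and 1297 CPM for Gpnmb.

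Cells with mature DC markers carried a different set. Culture cluster 6 (1833 Ndrg2-KO cells, 6 of 8 mature DC markers) had 4510 CPM of Fabp5 but 331 CPM of Lpl, 140 CPM of Gpnmb and 61.0 CPM of Apoe. The same contrast held among untreated cells, where culture cluster 2, with all 8 mature markers, held 75.3% of the Fabp5 UMIs at 6575 CPM and only 0.834 CPM of Apoe. Culture cluster 11 (490 Ndrg2-KO cells, 4 of 8 monocyte markers) had the highest Apoe of the culture clusters with at least 100 cells of a library, 1622 CPM, with 101 CPM of Cd36 and 151 CPM of Gpnmb. Apoe and Gpnmb were thus not at their highest in the same cultured cells.

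Clusters with the same leading marker list were also set side by side, in a comparison chosen after the data were seen. It is a description only, because culture cluster 0 carries 6 of 12 macrophage markers against 3 of 12 in culture cluster 8. The 9 genes were left out of the variable genes used for the clustering. Culture cluster 0 of Ndrg2-KO DCs against culture cluster 8 of untreated DCs (1195 cells, also 4 of 8 premature DC markers) gave 7 of 9 at least 2-fold higher and none lower, beside 8.58% and 5.91% of all genes. The log2 ratios were 5.88 for Apoe, 5.08 for Fabp4, 2.96 for Abca1, 2.13 for Fabp5, 1.95 for Gpnmb, 1.87 for Cd36 and 1.11 for Trem2, with Lpl at 0.22 and Abcg1 at 0.38. Culture cluster 6 of Ndrg2-KO DCs against culture cluster 2 of untreated DCs gave 6 of 9 at least 2-fold higher, beside 9.21% of all genes, and none lower, beside 3.53%. Apoe (6.19), Trem2 (3.76), Abca1 (3.22), Fabp4 (3.07), Cd36 (2.93) and Gpnmb (2.21) were the 6, while Fabp5 was at -0.54. Apoe had 34 UMIs in culture cluster 2 of untreated DCs. It passed the limit of 100 UMIs only through culture cluster 6 of Ndrg2-KO DCs, where it is high. The part of nucleofection in these ratios was not tested.

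The wounds showed which tissue cells hold the 9 genes. Clusters 3, 4 and 7 of the 13 wound clusters, each with 11 of 12 macrophage markers, were pooled as macrophage-like cells (560, 1398 and 845 cells). Macrophage-like cells were 24.6% to 28.7% of the cells and held 85.7% to 86.7% of the Apoe UMIs and 86.8% to 91.4% of the Trem2 UMIs. By the median over the 3 libraries they had the highest levels of all classes for Apoe (10865 to 19264 CPM), Trem2 (348 to 358 CPM), Gpnmb (234 to 304 CPM) and Abca1 (759 to 1006 CPM). For Apoe, Trem2 and Abca1 their range over the 3 libraries lay above that of every other class, whereas for Gpnmb it overlapped the 3.94 to 275 CPM of keratinocyte-like cells. Next for Apoe was wound cluster 5, which carries monocyte and DC markers and stayed unnamed, at 2796 to 5719 CPM.

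Fabp4, and by its median level Cd36, stood higher in another class than in macrophage-like cells. Endothelial cell-like cells (64, 85 and 51 cells) had 11964, 6530 and 3677 CPM of Fabp4, against 72.7, 44.1 and 82.4 CPM in macrophage-like cells. This cluster held 91.8%, 82.6% and 68.7% of the Fabp4 UMIs of the 3 libraries with 1.5% to 3.3% of their cells, and 5 of 7 mast cell markers also passed the marker limit in it. Endothelial cell-like cells also led for Cd36 with 324 to 832 CPM, a range that overlapped the 207 to 406 CPM of macrophage-like cells. Most Cd36 UMIs were nonetheless in macrophage-like cells, with 60.9%, 88.4% and 83.2% against 30.0%, 4.55% and 4.44% in endothelial cell-like cells. The endothelial cell markers in macrophage-like cells summed to 15.7, 35.7 and 20.2 CPM, with 4, 5 and 4 of 7 detected and Tie1 at 0 in all 3 libraries, and their part in the Fabp4 level was not tested.

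Fabp5 was highest in dendritic cell-like cells, with 4364, 4740 and 2796 CPM from only 14, 24 and 33 cells. Macrophage-like cells had 1107, 1338 and 1487 CPM and, being far more numerous, held 69.0% to 71.3% of the Fabp5 UMIs. Keratinocyte-like cells followed with 815 to 3521 CPM, a range that overlapped the dendritic cell-like one. Lpl was at 371, 164 and 453 CPM in macrophage-like cells, overlapping the 144 to 263 CPM of fibroblast-like cells.

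**Figure D3:**
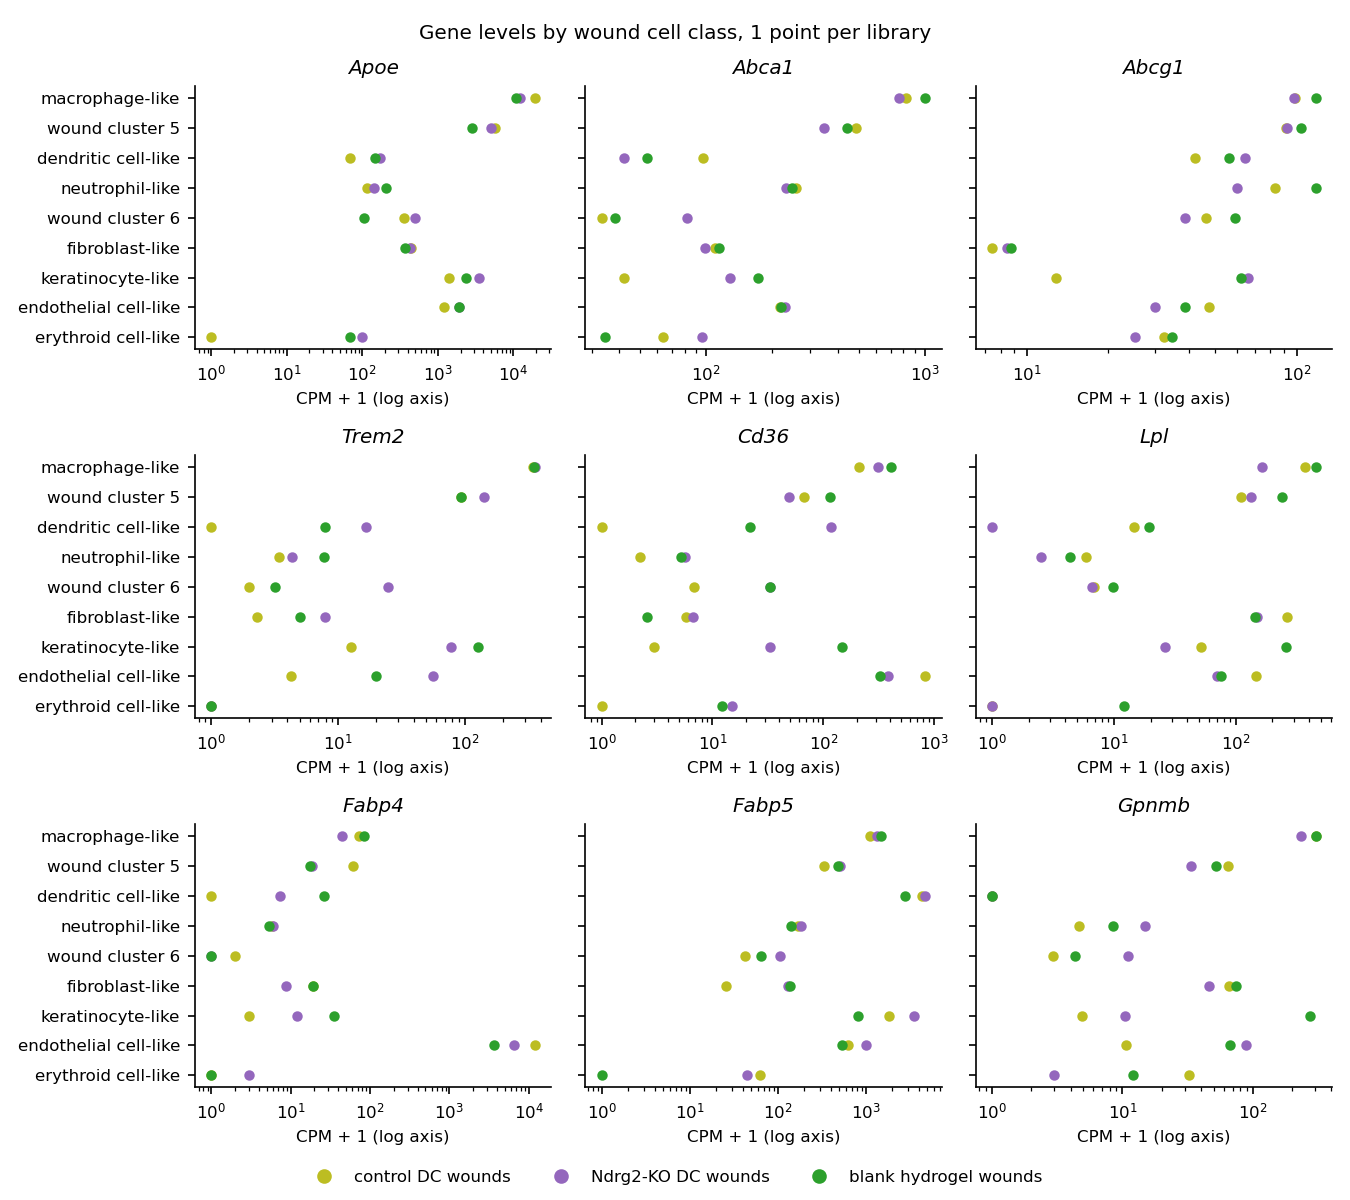
Level of each gene by wound cell class, as CPM + 1 on a log axis, with 1 point per wound library. Macrophage-like cells lie furthest to the right for Apoe, Trem2 and Abca1, endothelial cell-like cells for Fabp4, and dendritic cell-like cells, by their median, for Fabp5.

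The 3 macrophage-like clusters differed from each other more than the libraries did for several of the 9. Wound cluster 3, led by Mmp12, Mmp13 and Arg1, had 399 to 756 CPM of Gpnmb, 467 to 604 CPM of Cd36 and 217 to 908 CPM of Lpl. Wound cluster 7, led by Cd209 genes and with Lyve1 among its leading genes, had 5.85 to 19.9 CPM of Gpnmb, 38.1 to 66.3 CPM of Cd36 and 32.2 to 70.7 CPM of Lpl. These ranges did not overlap, and wound cluster 4, led by Il10 and Fcrls, lay between them for Gpnmb (153 to 210 CPM) and Cd36 (129 to 275 CPM).

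Apoe ran the other way, from 3739 to 8654 CPM in cluster 3 to 12944 to 22511 CPM in cluster 4 and 21239 to 27093 CPM in cluster 7. Trem2 was at 299 to 416, 374 to 422 and 235 to 391 CPM in clusters 3, 4 and 7, and Abcg1 at 85.1 to 126, 83.1 to 116 and 87.3 to 124 CPM, so that for both genes all 3 ranges overlapped. Abca1 was at 874 to 1163 CPM in cluster 3 and 557 to 675 CPM in cluster 7. These genes were left out of the variable genes that formed the clusters. No test was run, so the differences between clusters are a description.

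Ndrg2-KO cultured DCs were then set beside the wound macrophage-like cells. The comparison joins libraries that differ in source, dissociation, library preparation and Cell Ranger version (3.1.0 for cultures and 6.0.0 for wounds), which cannot be told apart from cell type. Of the 9 genes, 4 were at least 2-fold higher in Ndrg2-KO DCs than in macrophage-like cells of all 3 wound libraries (Cd36, Lpl, Fabp5 and Gpnmb) and 2 were at least 2-fold lower (Apoe and Abca1). Of the 11688 genes tested, 20.9% were at least 2-fold higher and 9.93% lower in all 3. All 3 ratios share the Ndrg2-KO library, and the median log2 ratio of all genes was 0.30 to 0.37, and 0.49 to 0.54 when mitochondrial and ribosomal protein genes were left out of the totals.

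For Apoe the level was 583 CPM in the cultured Ndrg2-KO cells and 19264, 12050 and 10865 CPM in macrophage-like cells. The wound cells were 33.0-, 20.7- and 18.6-fold higher, log2 ratios of -5.05, -4.37 and -4.22 for Ndrg2-KO DCs. Abca1 was at 162 CPM against 818, 759 and 1006 CPM, or -2.34, -2.23 and -2.64. Apoe, 21.7-fold above untreated DCs in the Ndrg2-KO culture, was thus still below all 3 wound values.

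Lpl was at 2621 CPM in Ndrg2-KO DCs against 371, 164 and 453 CPM, or 7.07-, 16.0- and 5.79-fold higher. Cd36 was at 1470 CPM against 207, 313 and 406 CPM, ratios of 2.83, 2.23 and 1.85. Gpnmb was at 948 CPM against 303, 234 and 304 CPM (1.64, 2.02 and 1.64) and Fabp5 at 3156 CPM against 1107, 1338 and 1487 CPM (1.51, 1.24 and 1.09). These 4 genes stood above all 3 wound values in the cultured cells, the reverse of Apoe and Abca1. With a mitochondrial limit of 5%, which keeps 1721 Ndrg2-KO cells, Lpl and Cd36 were the 2 genes that remained at least 2-fold higher against all 3.

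Trem2, Abcg1 and Fabp4 lay closer to the wound cells as clustered. Trem2 was at 499 CPM against 348, 358 and 351 CPM, log2 ratios of 0.52, 0.48 and 0.51, and the 3 wound intervals (335 to 361, 349 to 367 and 340 to 363 CPM) overlapped. Abcg1 was at 134 CPM against 97.5, 97.1 and 117 CPM. Fabp4 was at 126 CPM against 72.7, 44.1 and 82.4 CPM, past 2-fold against the Ndrg2-KO DC wounds (log2 ratio 1.52) and within it against the others (0.80 and 0.62). Against wound cells gated on macrophage markers without clustering, Fabp4 was past 2-fold in all 3 comparisons (2.36, 2.84 and 1.86), and Trem2 was past it against control DC and blank hydrogel wounds (1.29 and 1.15) and at 0.81 against the Ndrg2-KO DC wounds. With the first naming step alone, Fabp4 was also past it against control DC wounds (1.16). Taken singly, the 3 comparisons had 29.2%, 27.2% and 27.8% of all genes at least 2-fold higher and 13.7%, 13.1% and 13.9% lower.

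Setting culture cluster 0 beside wound cluster 3, which share Arg1 and Mmp13 among their leading genes, narrowed some gaps and not others. The log2 ratios of Apoe were -3.46, -2.24 and -2.57 and those of Abca1 -2.25, -2.12 and -2.53. Lpl stood at 1.83, 3.89 and 2.33, Cd36 between 1.74 and 2.11, and Gpnmb at 0.78, 1.70 and 1.52. Fabp5 (0.58, 0.94 and 0.95) and Trem2 (0.44, 0.91 and 0.67) were within 2-fold, as was Abcg1 (0.29, 0.85 and 0.37), while Fabp4 stood at 0.70, 2.33 and 1.03. Of the 9, 2, 4 and 4 were at least 2-fold higher and 2 lower each time. Of all genes, 26.3%, 30.6% and 24.1% were at least 2-fold higher and 11.4%, 11.9% and 13% lower. C1qa was at 90.5 CPM in Ndrg2-KO DCs, so these cultured cells did not carry the complement gene at the level of the wound cells.

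**Figure D4:**
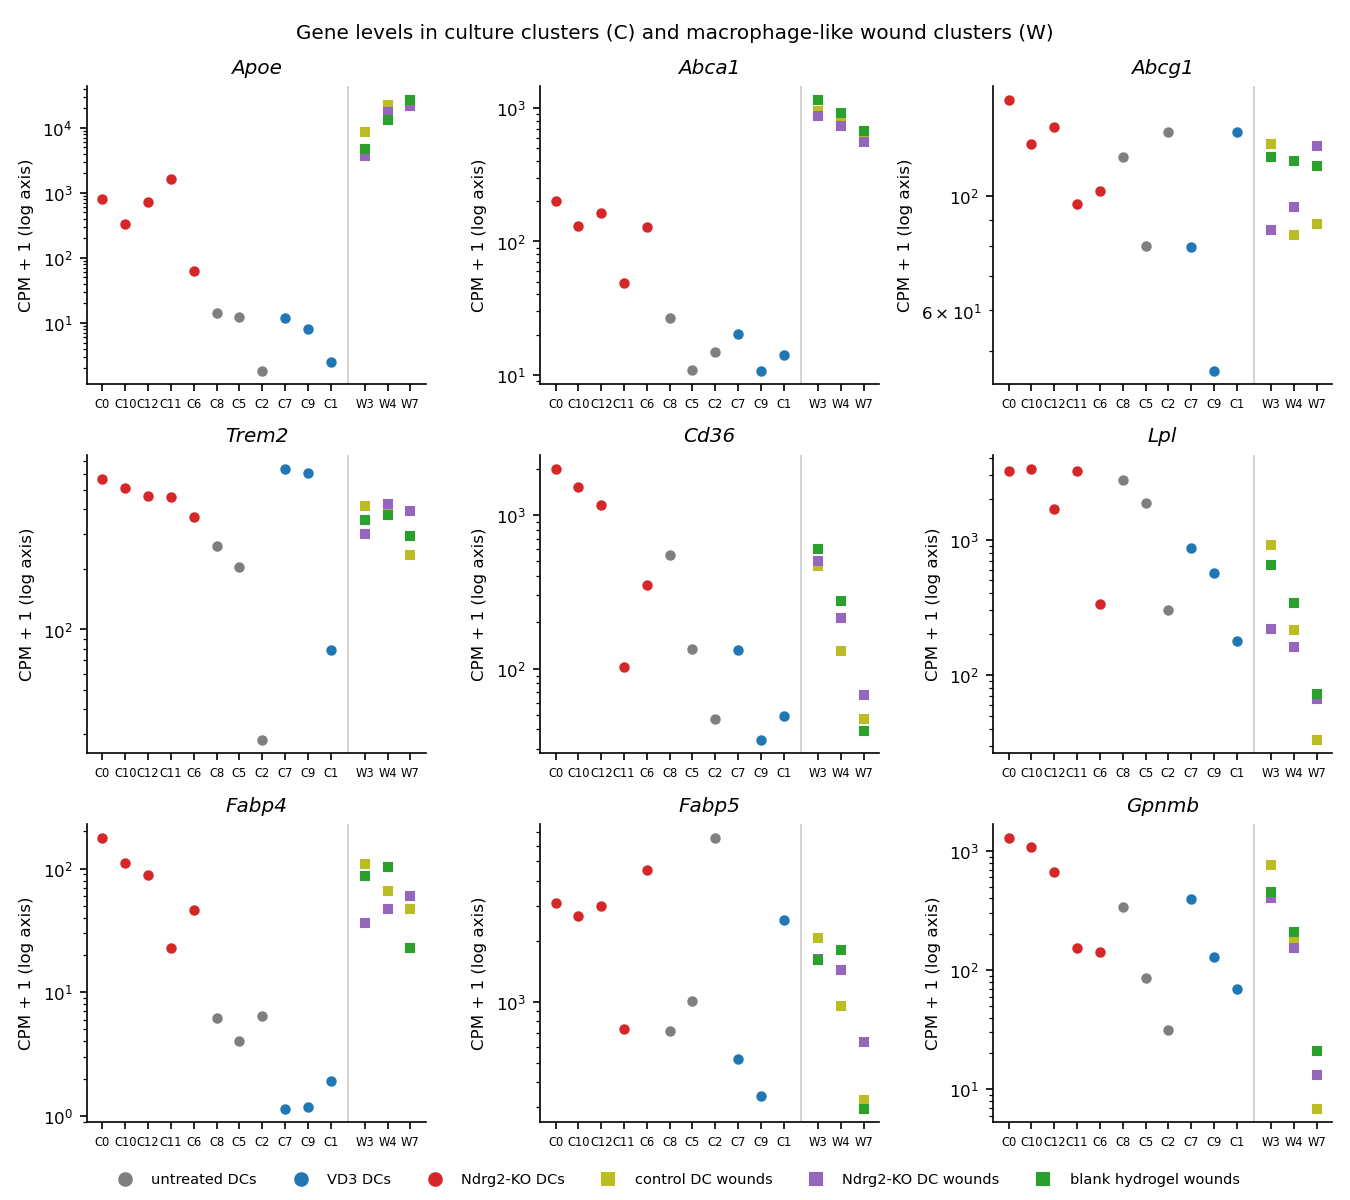
Level of each gene, as CPM + 1 on a log axis, in the larger culture clusters (C, circles, coloured by library) and in macrophage-like wound clusters 3, 4 and 7 (W, squares, 1 per library). The wound clusters lie above every culture cluster shown for Apoe and Abca1, and culture cluster 0 lies above them for Cd36, Lpl and Gpnmb.

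The 9 genes were also counted per cell, by how many of them had a UMI. Summed over the 9, their share of all UMIs was 0.970% in Ndrg2-KO DCs and 2.26%, 1.54% and 1.51% in macrophage-like cells, and without Apoe it was 0.912% against 0.332%, 0.331% and 0.421%. Each cell was drawn to 1000 UMIs, which left out 34 to 336 cells of a culture library and 13 to 36 macrophage-like cells of a wound library. UMIs of at least 3 of the 9 genes were found in 60.6% (59.6% to 61.7%) of Ndrg2-KO DCs, 12.7% of untreated DCs and 5.21% of VD3 DCs. Macrophage-like cells reached 48.6%, 44.0% and 53.7%. Without drawing, the shares were 94.7%, 68.3% and 54.3% in the cultures and 92.9%, 91.6% and 94.0% in macrophage-like cells.

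Wound cluster 6, which carries all 8 T cell markers and is led by granzymes, was taken as the background, with 0.667%, 0.752% and 0% of cells at 3 or more genes. Its median depth was 6314, 5024 and 6226 UMIs, and that of macrophage-like cells 12640, 11326 and 12735 UMIs. In culture, the 154 Ndrg2-KO cells of culture cluster 2 gave 7.14% (median 7755 UMIs), against 82.5% in culture cluster 0. Apoe had a UMI in 8.67% to 11.7% of wound cluster 6 cells at this depth (31.8% to 38.8% undrawn), against 75.1% to 93.2% of macrophage-like cells (90.9% to 98.2% undrawn). At least 5 of the 9 genes were found in 19.7% of Ndrg2-KO DCs, 0.473% of untreated DCs, 0.0707% of VD3 DCs and 6.39% to 12.3% of macrophage-like cells.

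**Figure D5:**
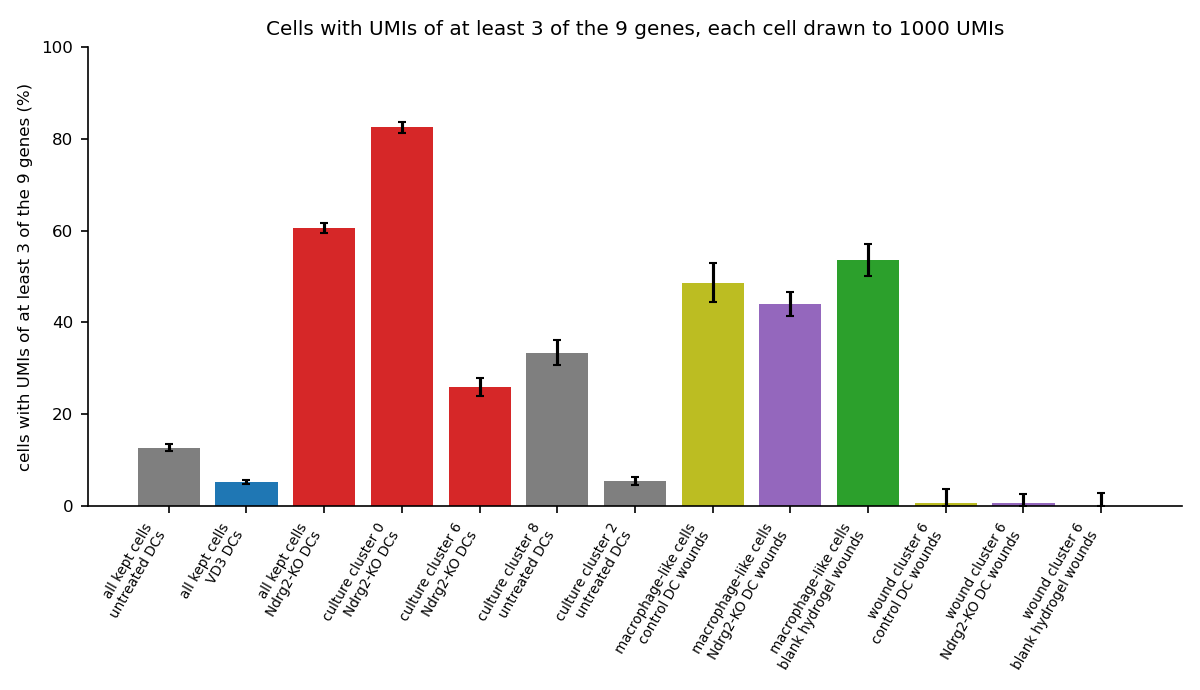
Share of cells with UMIs of at least 3 of the 9 genes after each cell was drawn to 1000 UMIs, with exact binomial 95% intervals, by library and cell set. Culture cluster 0 stands highest at 82.5%, Ndrg2-KO DCs as a whole reach 60.6%, macrophage-like cells 44.0% to 53.7%, and wound cluster 6 stays under 1%.

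Wounds treated with Ndrg2-KO DCs were compared with the other wounds within macrophage-like cells. Lpl alone of the 9 was past 2-fold, and it was lower, beside 0.717% (against control DCs) and 0.382% (against blank hydrogels) of all genes at least 2-fold lower. None of the 9 was at least 2-fold higher, beside 3.39% and 1.86% of all genes. Between control DC and blank hydrogel wounds none of the 9 was past 2-fold, beside 0.776% of all genes higher and 1.66% lower. Lpl gave -1.18 (-1.25 to -1.10) and -1.46 (-1.53 to -1.40) on the log2 scale, from 2830 UMIs in the Ndrg2-KO DC wounds, 2815 in control DC wounds and 5034 in blank hydrogel wounds. The remaining genes lay between -0.72 (Fabp4) and 0.60 (Cd36) against control DC wounds and between -0.90 (Fabp4) and 0.15 (Apoe) against blank hydrogel wounds.

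The Lpl difference was not the same in each cluster. Against control DC wounds it was -2.06 in wound cluster 3, -0.43 in cluster 4 and 1.03 in cluster 7. Against blank hydrogel wounds it was -1.56, -1.09 and -0.11. In wound cluster 3, Apoe, Lpl and Fabp4 were at least 2-fold lower than in control DC wounds and Lpl and Fabp4 than in blank hydrogel wounds, beside 1.75% and 1.36% of all genes lower and 4.84% and 2.95% higher. In cluster 4 none was past 2-fold against control DC wounds (0.571% of all genes lower, 3.15% higher), and Lpl and Fabp4 were lower than in blank hydrogel wounds (0.428% lower, 1.42% higher). In cluster 7, Lpl was higher than in control DC wounds (3.71% of all genes higher, 0.948% lower), and Fabp4 and Fabp5 were higher than in blank hydrogel wounds (3.17% higher, 0.561% lower). Lpl in control DC wounds and Fabp4 in blank hydrogel wounds had fewer than 100 UMIs in cluster 7. Each passed that limit only through the Ndrg2-KO DC wounds, where it is high. The makeup of the class differed too, as cluster 3 was 28.0%, 48.4% and 43.6% of macrophage-like cells and cluster 7 24.8%, 15.2% and 12.9%. Cluster 3 entered the macrophage-like class by a second naming step chosen after the data were seen. Against control DC wounds none of the 9 was past 2-fold with the first naming step alone or with the mean over cells of each cell's CPM, and against blank hydrogel wounds none was in cells gated on markers without clustering. The 8 neutrophil markers summed to 492, 4747 and 1817 CPM and the 6 erythroid cell markers to 1554, 3398 and 2016 CPM in the macrophage-like cells of the 3 libraries, and their part in the Lpl difference was not tested. Apoe was 1.60-fold lower in Ndrg2-KO DC wounds than in control DC wounds, a log2 ratio of -0.68, and 1.11-fold higher than in blank hydrogel wounds.

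The wider lipid genes were followed in 7 lists of 71 genes. Comparing the Ndrg2-KO with the untreated culture, where 9.11% of all genes were at least 2-fold higher and 7.67% lower, further LXR targets had 5 of 9 measured genes at least 2-fold higher and none lower, with a median log2 ratio of 1.30. Pltp, a phospholipid transfer protein, had 9.27 CPM in the untreated and 109 CPM in the edited culture (3.55) and Apoc1 at 0.151 and 0.940 CPM (2.64). Apoc1 had 20 and 135 UMIs and so passed the limit of 100 UMIs only through the library where it is high, which leaves 4 of 8 without it. At the low end were Abca7 (-0.29) and Nr1h3 (-0.18). Nr1h3 itself, which encodes LXR alpha, stood at 3.65 and 3.23 CPM. The list of nuclear receptors, with Pparg at 11.6 and 14.1 CPM, had 0 of 7 past 2-fold and a median of -0.04.

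The same 9.11% and 7.67% of all genes stand beside the counts of the other lists. The other lipid-associated macrophage genes had 6 of 14 at least 2-fold higher and none lower, with a median of 0.89, led by Ctsl, a lysosomal protease (186 and 1579 CPM, 3.09), and Spp1, which encodes osteopontin (520 and 4392 CPM, 3.08). Lysosomal lipid breakdown and export had 3 of 10 higher (median 0.81), led by Lamp2 (177 and 668 CPM) and Psap, the saposin precursor (2356 and 6834 CPM). Scavenger and lipoprotein receptors had 3 of 9 higher and 1 lower, with the efferocytosis receptor Mertk at 8.53 and 44.8 CPM and Marco lower at 2.96 and 1.12 CPM. Lipid droplet and esterification genes had 2 of 11 higher, Nceh1 and Hilpda, and 1 lower, Dgat2 (6.75 and 0.466 CPM), which passed the limit of 100 UMIs only through the untreated library. Counts of 0 or 1 gene in a list are near these shares and are given as values. TREM2 signalling genes had 0 of 8 past 2-fold (median -0.07), with Syk highest at 0.36 and Plcg2 lowest at -0.63.

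Against the wound macrophage-like cells, 20.9% of all genes were at least 2-fold higher and 9.93% lower in all 3 comparisons, and with lists of 8 to 14 genes a count of 1 or 2 is near these shares. In all 3, lysosomal genes had 0 of 10 at least 2-fold higher and 1 lower (Npc1), lipid droplet genes 0 of 10 higher and 2 lower (Plin2 and Hilpda), TREM2 signalling genes 0 of 8 higher and 1 lower (Vav3), and scavenger receptors 1 of 9 higher (Axl) and 2 lower (Lrp1 and Stab1). Nuclear receptors had 1 of 8 higher (Ppargc1b) and 2 lower (Nr1h3 and Nr1d1), and the other lipid-associated macrophage genes 4 of 14 higher and 1 lower. Pltp, at 109 CPM in the Ndrg2-KO culture, was at 749, 670 and 793 CPM in the wound cells, and Mylip, an LXR-induced ligase, stood at 22.1 against 205, 145 and 145 CPM. Nr1h3 was at 3.23 against 19.6, 18.5 and 39.7 CPM. Scd1, a fatty acid desaturase that is also on the LXR list, was at 44.8 CPM against 0.791, 1.16 and 0.990 CPM, the opposite direction. Of 9 further LXR targets 2 were at least 2-fold higher and 4 at least 2-fold lower in each of the 3 comparisons. Scd1 and Apoc1, counted among these 6, and Ppargc1b had fewer than 100 UMIs in the wound cells and passed the limit only through the cultured library, and Nr1d1 passed it only through the wound cells.

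The genes most like each of the 9 were sought over 58 groups of at least 30 cells, 26 from cultures and 32 from wounds, by Pearson's r of log2(CPM + 1) among 12278 genes. The groups share libraries and depth, so r is a description. Apoe was closest to Lhfpl2 (0.860) and Rab1a (0.851), Abca1 to Trim25 (0.885) and Lhfpl2 (0.877), and Trem2 to Pld4 (0.891) and Mfsd12 (0.878). Gpnmb was closest to Psap (0.793) and Atp6v0d2 (0.776), and Fabp4 to the long non-coding RNA Bvht (0.761) and the endothelial cadherin Cdh5 (0.738). Lpl was closest to Aifm2 (0.866), Fabp5 to Pgap2 (0.808), Cd36 to Cav2 (0.796) and Abcg1 to Slc6a6 (0.853). Among the 9 themselves, Apoe and Abca1 (0.772), Lpl and Gpnmb (0.751) and Trem2 and Lpl (0.737) varied together, whereas Apoe and Fabp5 (-0.11) and Lpl and Abca1 (-0.16) did not.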

How the data were processed

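Single-cell RNA was measured with the 10x Genomics 3′ v3 kit in 6 libraries. The deposited matrices hold raw UMI counts that Cell Ranger gave the authors (version 3.1.0 for cultures and 6.0.0 for wounds per the file headers). The study's methods name mm10 and the submitters' processing notes list mm9 and Seurat 3.1.1. Counting error alone sets the precision of the intervals, and PCR or library error is not in them. Antibody rows and the eGFP and tdTomato rows of the wounds were left out, and 0 columns were unmapped.

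Kept were cells that had 300 genes or more, fewer than 100000 UMIs and a mt- share below 10%. Scrublet (scanpy 1.11.5) marked at most 0.873% of the cells of a library and was taken not to have worked, so doublets were kept, and an alternative left out the highest 6% of scores. UMIs were summed per library or cell class and scaled to CPM. Intervals were exact Poisson, conditional binomial (ratios) or Clopper-Pearson (shares), at 95%. With 1 library per condition no test was run. A fold against 0 used a floor of 3 UMIs. A gene was counted as past 2-fold among genes with at least 100 UMIs in either sum.

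Clusters came from Seurat 5.3.0 in R 4.3.3 (2000 variable genes, 15 components, 15 neighbours, Louvain resolution 0.5), and were named from at least 3 markers at 50 CPM and 2-fold. The 9 genes, the genes of the 7 lists and Ndrg2 were left out of the variable genes. A second naming step, which compared clusters without those already sharing a name, was chosen after seeing the data. The 9 genes, the gene lists and the rules were chosen with earlier results of these data known. Named were the 9 genes, the targeted gene, the 2 highest and 2 lowest genes of a list by log2 ratio, and the 2 most alike genes. Itgax, H2-Ab1, Flt3, C1qa, Tie1 and Lep are cell type markers. The markers shown, Pparg, Scd1, Mylip and list genes named with a count against the wound cells were chosen after their values were seen. Coordinates are from GENCODE M21 (GRCm38) and promoters from RefSeq (GRCm38.p6). Python 3.11.15, NumPy 2.4.6, pandas 2.3.3, SciPy 1.17.1, matplotlib 3.10.9 and edgeR 4.0.16 (TMM factors only) were used, and the code was tested on simulated data.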

Additional observations from a re-analysis of the deposited data

How the results depend on the processing

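Genes past 2-fold over all kept cells or all macrophage-like cells kept their direction under the alternatives run, except Lpl in the wounds with Ndrg2-KO against control DCs, which was higher in wound cluster 7 alone. In that cluster Lpl had fewer than 100 UMIs in control DC wounds and passed that limit only through the Ndrg2-KO DC wounds. Some genes within 2-fold over all kept or all macrophage-like cells were past it in single clusters, with the opposite sign in others. Fabp4 was lower in wound cluster 3 and higher in cluster 7, against control DC (-1.62 and 0.35) and blank hydrogel wounds (-1.29 and 1.44). In cluster 7, Fabp4 had fewer than 100 UMIs in blank hydrogel wounds and passed that limit only through the Ndrg2-KO DC wounds. Fabp5 against blank hydrogel wounds was at 1.12 in cluster 7 and -0.33 in cluster 4. Fabp5 between Ndrg2-KO and untreated DCs was at 2.13 in culture cluster 0 against 8, at -0.54 in cluster 6 against 2, and at -0.41 without the neutrophil, granulocyte progenitor and shallow clusters. Of the counts of genes past 2-fold, 144 values were the same within 1.5 times and 22 moved. Of the log2 ratios of single genes 446 moved beyond their counting interval and 337 did not, of the percentages of all genes 14 moved and 18 did not, and all 162 percentages of cells moved with the depth drawn to. No library could be left out, since each condition is 1 library. No paired analysis was possible because each condition has 1 library and no test was run.

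The count higher in VD3 than in untreated DCs went from 1 to 0 with under 5% mt- UMIs and at 4-fold, and the count lower from 5 to 1 at 4-fold. The gene left at 4-fold was Fabp4, with 57 UMIs in VD3 DCs. It passed the limit of 100 UMIs only through untreated DCs, where it is high. The count higher in Ndrg2-KO DCs than in macrophage-like cells of all 3 wounds went from 4 to 2 with under 5% mt- UMIs and to 1 at 4-fold. In macrophage-like cells of Ndrg2-KO DC wounds against control DC wounds, the count higher went from 0 to 1 at 1.5-fold (Cd36) and to 1 in wound cluster 7 alone (Lpl). The count lower went from 1 to 3 at 1.5-fold and in cluster 3 alone, to 2 in cells gated on markers without clustering (Lpl and Gpnmb), and to 0 at 4-fold, with the mean of each cell's CPM, with clusters named in 1 step only, and in cluster 4 or 7 alone. Against blank hydrogel wounds the count lower went from 1 to 2 at 1.5-fold and in cluster 3 or 4 alone, and to 0 at 4-fold, in marker-gated cells and in cluster 7 alone, where the count higher was 2 (Fabp4 and Fabp5). In cluster 7, Lpl in control DC wounds and Fabp4 in blank hydrogel wounds had fewer than 100 UMIs. Each passed that limit only through the Ndrg2-KO DC wounds, where it is high. The fits in single clusters, in pairs of clusters, with clusters named in 1 step and without the neutrophil, granulocyte progenitor and shallow clusters were added after seeing the data. Causes were not tested, except that a stricter fold leaves fewer genes by construction.

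Single libraries limit every comparison. Totals without mitochondrial and ribosomal protein genes moved the median ratio of all genes by up to 0.20 on the log2 scale between Ndrg2-KO DCs and wound cells. Apoe in Ndrg2-KO against untreated DCs ranged from 3.12 to 5.77 over the alternatives. Lpl in macrophage-like cells of Ndrg2-KO DC wounds ranged from -1.48 to -0.15 against control DC wounds over 13 settings. These settings include naming in 1 step, which leaves out wound cluster 3, but no cluster taken alone.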
